A study of Homo sapiens and Mus musculus with 10 samples.

Results

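Tissue from 4 mice carrying melanoma is described here across genes. The series text calls it back skin and the sample labels call it melanoma tissue. It was made into 4 of the 10 RNA-seq libraries of the series. The libraries were taken by the columns of the deposited mouse table, 2 named cKO (cKO-1 and cKO-2) and 2 named WT (WT-1 and WT-2). The other 6 libraries came from a human cell line and were not used here. Of 78298 mouse gene rows, 14537 reached 1 TPM in at least 2 of the 4 columns and were tested, and 8 marker genes served to describe the tissue. TPM, the unit of the table, scales the reads of a gene by transcript length and library total, so that levels can be set side by side between genes. It keeps no sequencing depth, and no counting interval can be given.

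Every mouse received 200000 B16-F0-Luc cells, a luciferase-labelled mouse melanoma line, in 200 µL by intradermal injection into the back on day 1. All were treated with 30 mg imiquimod cream a day from day 15 to day 21, and a piece of back skin with tumour was taken from each on day 25. No arm lacked tumour cells or imiquimod. One genotype was K14Cre Campf/f, in which Cre recombinase driven by the keratin 14 promoter acts on floxed Camp alleles in keratinocytes, so that injected melanoma cells and the mouse's own leukocytes keep the gene. The other genotype is labelled Campf/f for the samples and is called wild type in the series text. No label used here states age, sex or strain background.

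The labels contradict each other on which columns hold which genotype. The libraries titled cko with genotype K14CreCampf/f are described as the columns WT-1 and WT-2, and the libraries titled WT with genotype Campf/f as the columns cKO-1 and cKO-2. Groups are therefore named by column throughout, and "higher in the cKO columns" carries no direction with respect to genotype. The comparison was made to ask what loss of keratinocyte cathelicidin does to skin with melanoma under imiquimod.

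Camp encodes cathelicidin, an antimicrobial peptide precursor that neutrophils store in granules and keratinocytes make after injury or infection; its human product is LL-37. Imiquimod activates Toll-like receptor 7 and gives a psoriasis-like inflammation in mouse skin, with neutrophils, macrophages and interleukin 1 and interleukin 17 cytokines. Skin with a tumour of this kind can hold epidermis, dermis, fat, leukocytes and pigmented melanoma cells. A bulk library mixes the RNA of those present in the piece taken. How much of each library came from skin and how much from tumour was not tested.

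The gene of the targeted peptide was close to absent in all libraries. Camp (ENSMUSG00000038357) was listed at 0.00 and 0.26 TPM in columns WT-1 and WT-2 and at 0.72 and 0.15 TPM in columns cKO-1 and cKO-2. The 2 groups overlapped, no library reached 1 TPM, and Camp was not tested. These levels do not settle which columns came from which genotype. In bulk tissue, fewer cells of a type and less RNA per cell cannot be told apart, and this holds for each marker below.

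Krt14 and Adipoq, the only markers of the epidermis and of fat examined, were also at or near 0 in most libraries. The series text nevertheless calls the tissue back skin. Krt14 encodes keratin 14 of basal keratinocytes, and its promoter drives the Cre. It was listed at 0.00 TPM in WT-1, 80.21 in WT-2, 0.41 in cKO-1 and 0.00 in cKO-2. WT-2 thus stood alone, with 1626 genes listed at a higher level there, and the WT columns differed from each other by 6.34 on the log2(TPM + 1) scale. Adipoq, which encodes the fat cell hormone adiponectin, was listed at 1.81 TPM in cKO-1 and at 0 in the other 3. Neither gene reached 1 TPM in 2 columns, so neither was tested. The sample labels call the same material melanoma tissue. The RNA protocol in the labels describes cultured keratinocytes for all samples of the series. Krt14 stayed under 1 TPM in 3 libraries, and in WT-2 it lay far below the pigment gene Tyrp1 (2266.94 TPM). Which description holds was not tested.

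The pigment cell marker was among the most abundant genes in each library. Tyrp1 encodes an enzyme of melanin synthesis made by melanocytes and pigmented melanoma cells. Its levels were 2247.87 TPM in WT-1, 2266.94 in WT-2, 2478.08 in cKO-1 and 2841.68 in cKO-2. Between 33 and 58 genes were listed at a higher level than Tyrp1 in any 1 library. The cKO columns were both above the WT columns, the lowest of them by 1.09 times the highest WT value. The difference of the means was 0.23 on the log2(TPM + 1) scale (95% interval -0.09 to 0.56), and it did not pass the test (limma, adjusted p = 0.415).

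The T cell marker did not separate the groups. Cd3e, which encodes a chain of the T cell receptor complex, reached 15.12 TPM in WT-1, 10.39 in WT-2, 22.72 in cKO-1 and 13.06 in cKO-2. The value of cKO-2 lay between the 2 WT values, so the groups overlapped. The log2 difference of 0.43 had a 95% interval of -0.46 to 1.32 (limma, adjusted p = 0.552), which leaves room for more than a doubling in the cKO columns as well as for a lower level.

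**Figure D1:**
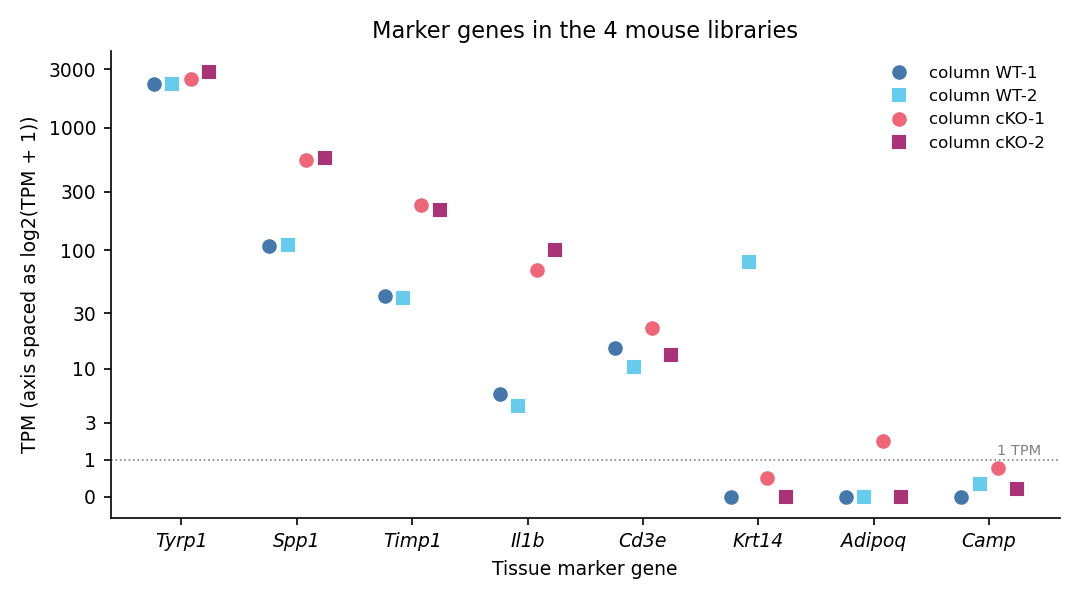
TPM of the 8 marker genes (vertical axis spaced as log2(TPM + 1)) in the 4 libraries, 1 point per library, with a dotted line at 1 TPM. Tyrp1 lies at 2247.87 TPM or more in all, Spp1, Timp1 and Il1b are higher in both cKO columns, Krt14 stands out in WT-2 alone (80.21 TPM) and Camp stays under 1 TPM.

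Against this background of tissue markers, the secreted matricellular protein gene Spp1 and the protease inhibitor gene Timp1 were higher in the cKO columns, each at about 5 times the WT level. Both passed the test across all genes, and the replicates of each group lay close together. The inflammatory cytokine gene Il1b had a larger difference and a wider spread, and did not pass.

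Spp1 encodes osteopontin, a secreted matrix and cytokine-like protein that macrophages and many tumours make. It stood at 107.35 TPM in WT-1, 111.27 in WT-2, 549.15 in cKO-1 and 568.18 in cKO-2. The WT columns averaged 109.3 ± 2.77 TPM and the cKO columns 558.7 ± 13.5 (SD, n = 2 each), a ratio of 5.11. Any cKO column exceeded any WT column by 4.94 to 5.29 times. The log2 difference was 2.34 ± 0.08 (SE, 95% interval 2.13 to 2.56; limma, adjusted p = 0.0395). In rank, Spp1 moved from 1249 and 1182 genes above it in the WT columns to 254 and 233 in the cKO columns.

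Timp1 encodes a tissue inhibitor of matrix metalloproteinases that stromal cells and macrophages release when tissue is inflamed or remodelled. Its level was 41.74 TPM in WT-1, 39.96 in WT-2, 236.55 in cKO-1 and 214.00 in cKO-2. The means were 40.85 ± 1.26 and 225.3 ± 15.9 TPM (SD, n = 2 each), a ratio of 5.51, and single columns of the 2 groups differed by 5.13 to 5.92 times. The log2 difference was 2.43 ± 0.09 (SE, 95% interval 2.18 to 2.68; limma, adjusted p = 0.0395). The gap between the groups was many times that between replicates, which was 0.06 for WT and 0.14 for cKO on the same scale.

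Il1b encodes interleukin 1 beta, an early cytokine of neutrophils and macrophages in inflamed skin. WT-1 and WT-2 held 5.81 and 4.42 TPM of it, and cKO-1 and cKO-2 held 69.07 and 101.27 TPM. The groups were apart, and single columns differed by 11.9 to 22.9 times, with a ratio of means of 16.7. The log2 difference was 3.80 ± 0.24 (SE, 95% interval 3.15 to 4.45), larger than those of Spp1 and Timp1, and 15 tested genes had a larger difference in that direction. Its adjusted p was 0.0722 (limma), and it ranked 13 among all tested genes by p.

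Of the 5 markers tested, 2 passed, both higher in the cKO columns, against 9 of all 14537 tested genes, or 0.0619% (3 higher, 0.0206%, and 6 lower, 0.0413%). In 4 of the 5 both cKO columns lay above both WT columns, which was so for 35.4% of tested genes. For 3 of the 5 the difference was also at least 2-fold, which held for 3.49% of tested genes. Over the same genes, none passed without WT-1, WT-2 or cKO-1 (limma; 1330, 778 and 1489 genes then had an unadjusted p under 0.05), and 55 passed without cKO-2. The 8 markers were picked with earlier results of these libraries in view, so their counts say nothing about markers in general.

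The calls for Spp1 and Timp1 ended without WT-1, WT-2 or, over the same genes, cKO-1, while the sizes of their differences hardly moved. A lone library in a group has no spread of its own, so the fit takes the spread from the other group. A lost call therefore cannot show that the difference depended on the library left out. With WT-1 left out the adjusted p was 0.486 for both (limma), and with WT-2 left out it was 0.634 for Spp1 and 0.687 for Timp1. Without cKO-1 it was 0.0812 for both over the same 14537 genes, and 0.0341 and 0.0343 over the 13972 genes that then reached the minimum. Over each of these omissions and that of cKO-2, the log2 difference was 2.32 to 2.37 for Spp1 and 2.36 to 2.51 for Timp1. For Il1b the log2 difference was 3.97 without WT-1, 3.64 without WT-2, 4.07 without cKO-1 and 3.53 without cKO-2. Whether it passed depended on which library was left out.

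Since Krt14 was listed above 0 in WT-2 and, at 0.41 TPM, in cKO-1, and Adipoq in cKO-1 alone, the 2 remaining libraries were also set against each other, with no test. From WT-1 to cKO-2, where both of those genes were listed at 0, the log2 difference was 2.39 for Spp1, 2.33 for Timp1, 3.91 for Il1b, 0.34 for Tyrp1 and -0.20 for Cd3e. This pair was chosen after seeing the data. Having both genes at 0 does not make the libraries alike in tissue, and the source of the differences was not tested. The values compare 1 library with 1 and carry no error. That of Cd3e had the other sign from its difference over all libraries.

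**Figure D2:**
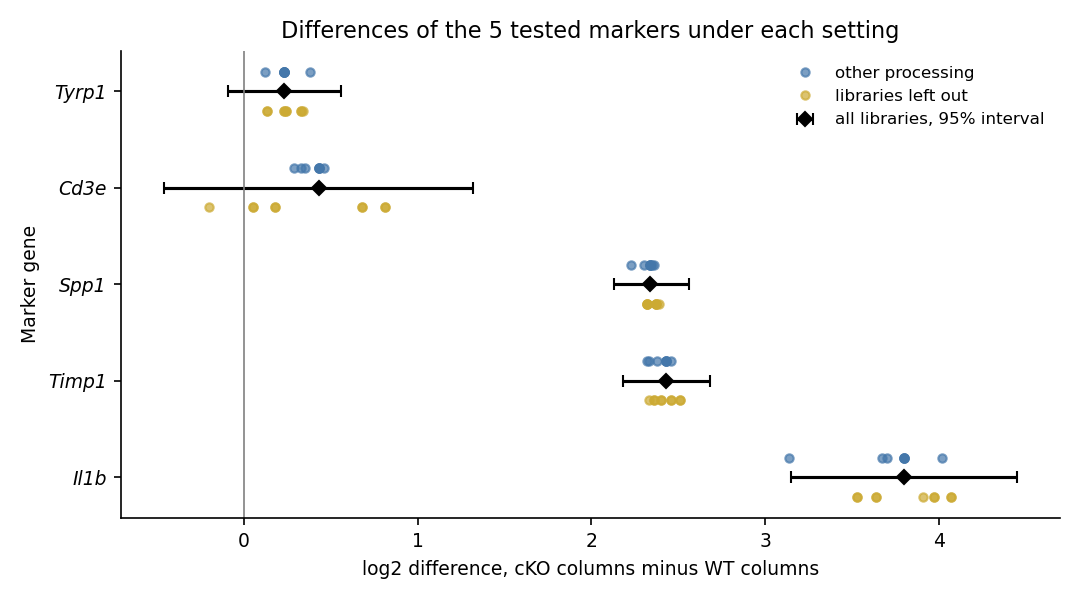
Log2 difference (cKO columns minus WT columns, horizontal axis) of the 5 tested markers. Diamonds with bars give the value over all libraries with its 95% interval, and points give the value with libraries left out or under other processing; Il1b, Timp1 and Spp1 stay above 2, while the intervals of Tyrp1 and Cd3e include 0.

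Across all tested genes, the cKO columns were higher more often than lower in the deposited TPM, but not after either rescaling below. The median log2 difference was 0.09, the 5th percentile was -0.41 and the 95th percentile 0.86. No overlap between the groups was seen in 51.1% of tested genes, 35.4% higher and 15.7% lower in the cKO columns. That split turned with the scaling: it was 23.1% and 26.8% with median-of-ratios scaling, and 19.9% and 27.9% with quantile normalization. An excess remained among genes at least 2-fold apart with no overlap, of which 508 (3.49%) were higher and 113 (0.777%) lower in the cKO columns. These numbers were 436 and 128 with median-of-ratios scaling and 389 and 156 with quantile normalization. Of the 508 and the 113, 134 and 51 met the minimum of 1 TPM through 1 group only. The excess was larger in cKO-1 than in cKO-2. From WT-1, 835 genes were at least 2-fold higher and 174 lower in cKO-1, against 370 and 297 in cKO-2. From WT-2 the numbers were 1267 and 221 for cKO-1, and 472 and 257 for cKO-2.

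**Figure D3:**
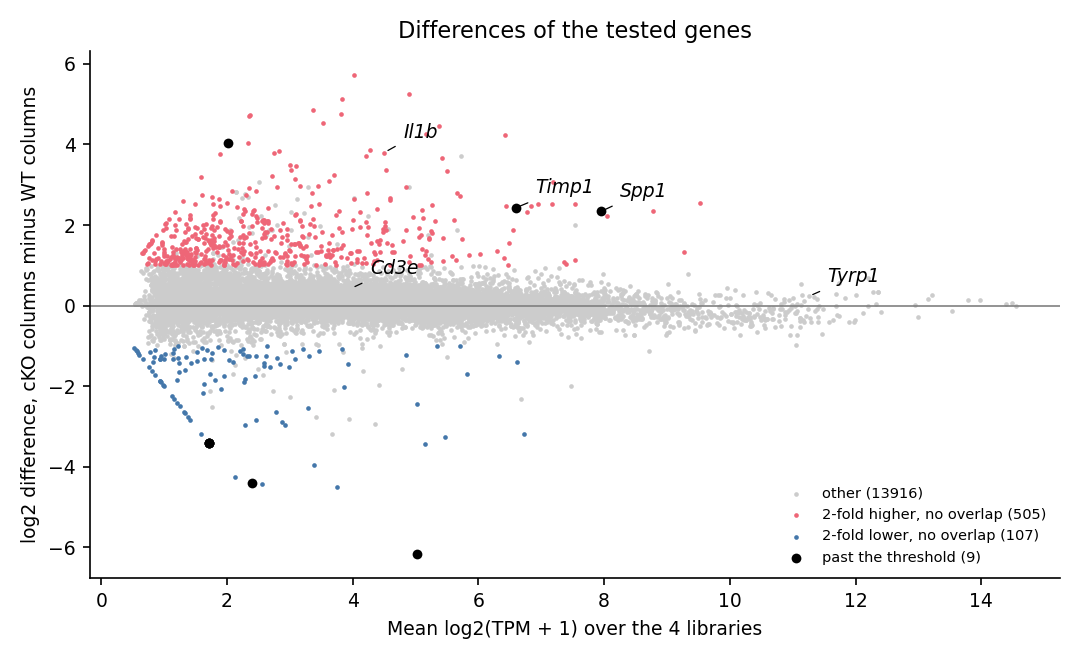
Log2 difference of each of the 14537 tested genes (vertical axis) against its mean log2(TPM + 1) (horizontal axis). Black points passed the threshold and coloured points are the others at least 2-fold apart with no overlap; Spp1 and Timp1 lie among the more abundant genes with a difference of this size, and Tyrp1 lies near 0 at the right.

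The deposited mouse genes carry Ensembl identifiers without names, and the reference held none for mouse. Beyond the 8 markers, only 2 further identifiers in each direction are therefore given, those past the threshold first. They are not all the largest differences. In the same direction, 11 tested genes had a larger difference than ENSMUSG00000094491, and 3 had a larger one than ENSMUSG00000057262. ENSMUSG00000062353 had the largest difference of any tested gene. Its level was 334.52 TPM in WT-1, 223.82 in WT-2, 3.19 in cKO-1 and 2.52 in cKO-2, a log2 difference of -6.16 ± 0.23 (SE; limma, adjusted p = 0.0395). ENSMUSG00000057262 went from 26.12 and 20.64 TPM in WT-1 and WT-2 to 0.31 and 0.00 in cKO-1 and cKO-2. The first thus stayed above 1 TPM in both cKO columns, and the second under it.

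In the other direction, ENSMUSG00000094491 had 13.30 TPM in cKO-1 and 17.83 in cKO-2 and was listed at 0 in WT-1 and WT-2. ENSMUSG00000058427 had the largest difference among genes higher in the cKO columns, with 1.64 TPM in WT-1, 0.87 in WT-2, 67.36 in cKO-1 and 202.90 in cKO-2. Its 2 cKO values lay 1.58 apart on the log2 scale, and it did not pass (limma, adjusted p = 0.144). The other 4 genes that passed were all lower in the cKO columns and had the same values in every library, 10.30 TPM in WT-1, 9.11 in WT-2 and 0 in cKO-1 and cKO-2. They count as 1 profile, so that the 9 calls hold 6 distinct ones; whether the 4 share reads was not tested.

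Most of these calls depended on how genes entered the test. Of the 9 genes past the threshold, 6 met the minimum of 1 TPM in 2 columns only through the group where they were high, 5 of the 6 lower genes and 1 of the 3 higher. They are ENSMUSG00000057262, ENSMUSG00000094491 and the 4 with the same values, and since the filter admitted them by the difference itself, their passing supports nothing. The remaining 3 were Spp1, Timp1 and ENSMUSG00000062353. The limma adjusted p of ENSMUSG00000094491 was 0.0411 as first computed, 0.0788 with a pseudocount of 0.1, 0.116 with a pseudocount of 5, 0.371 with no filter, 0.0565 with a filter of 5 TPM and 0.0615 with a replicate block. For ENSMUSG00000057262 it was 0.0411, and 0.18, 0.0637, 0.371 and 0.0565 under the first 4 of these alternatives. That of ENSMUSG00000062353 rose to 0.0637 with a pseudocount of 5 and 0.241 with no filter. None of these 3 identifiers passed without WT-1, WT-2 or cKO-1 over the same genes. Of the genes at least 2-fold apart with no overlap, 134 of the 508 higher and 51 of the 113 lower likewise met the minimum through 1 group only, against 439 of all 14537 tested genes.

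Of the genes at least 2-fold apart with no overlap, 78.5% of the higher and 88.5% of the lower had a mean under 20 TPM, against 59.4% of all tested genes; Spp1 and Timp1 had a higher mean. Of the 1330 tested genes with a mean of at least 100 TPM, 1.8% were at least 2-fold higher in the cKO columns with no overlap, and 0.226% lower. Spp1 and Timp1 are among the 24 higher genes of that class, and ENSMUSG00000062353 among the 3 lower ones. Of the 3917 genes under 5 TPM, these shares were 5.92% and 1.81%. Genes for which the table lists a single transcript, as for all of the 4 unnamed identifiers but ENSMUSG00000058427, made up 13.4% of tested genes and 62.8% of those at least 2-fold lower, but 28.3% of those at least 2-fold higher.

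**Figure D4:**
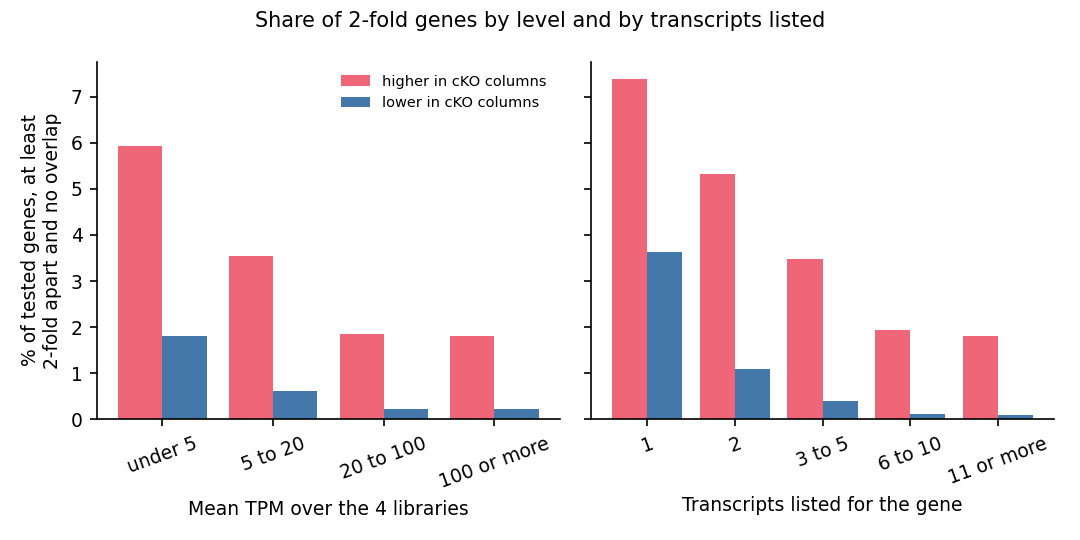
Share of tested genes (vertical axis, percent) that were at least 2-fold apart with no overlap, higher or lower in the cKO columns, by mean TPM (left) and by the number of transcripts the table lists for the gene (right). The higher share falls from 5.92% under 5 TPM to 1.8% at 100 TPM or more, and the lower share from 3.64% for genes with 1 transcript to 0.0952% for those with 11 or more. Genes that met the minimum through 1 group only are included.

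The cKO columns differed from each other at about as many genes as either WT column did from cKO-2, and column cKO-1 stood apart. Within the WT columns, 368 tested genes (2.53%) were at least 2-fold apart, and within the cKO columns 731 (5.03%), of which 617 were higher in cKO-1. Between the groups the count was 667 for WT-1 and cKO-2 and 729 for WT-2 and cKO-2, no larger than within the cKO columns. It was 1009 for WT-1 and cKO-1 and 1488 for WT-2 and cKO-1. Spp1, Timp1 and Il1b were at least 2-fold apart in every pair between groups and in no pair within one. How many other tested genes met this rule was not counted. Under the looser rule of no overlap and a mean difference of at least 2-fold, 3.49% of tested genes were higher in the cKO columns. These markers were picked with earlier results of these libraries in view. Without cKO-1, 360 genes were at least 2-fold higher and 231 lower with no overlap, against 508 and 113 with all libraries. Without cKO-2 these numbers were 932 and 148. No overlap is a looser rule with a lone library in a group, so these counts are not like for like. At any size of difference it held for 35.4% (higher) and 15.7% (lower) with all libraries. Those shares were 49.5% and 23.8% without cKO-1, and 51.3% and 29.3% without cKO-2.

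**Figure D5:**
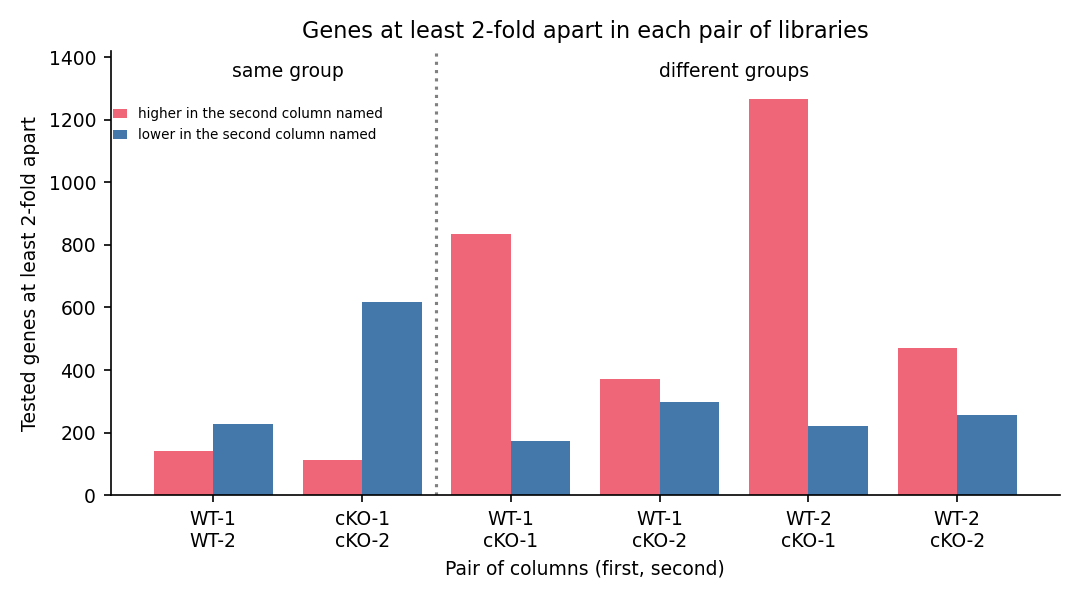
Number of tested genes at least 2-fold apart (vertical axis) in each of the 6 pairs of columns, higher or lower in the second column named. The pair of cKO columns differs by as many genes as WT-1 or WT-2 does from cKO-2, and both pairs of a WT column with cKO-1 have the most.

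The Krt14 pattern, high in WT-2 alone, was shared by other genes. In all, 37 genes reached 10 TPM in WT-2 and stayed under 1 TPM in the other 3, with Krt14 the ninth highest of them, against 8 genes for WT-1 alone. The same held for 39 genes in cKO-1 alone and 5 in cKO-2 alone. At a minimum of 1 TPM, as for Adipoq in cKO-1, the counts were 795 genes in cKO-1 alone, 331 in WT-2, 276 in cKO-2 and 195 in WT-1. What these genes have in common was not tested, since they could not be named.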

How the data were processed

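RNA from 1 piece of tissue per mouse gave stranded mRNA libraries (TruSeq kit, per the labels' protocols). The series text calls that tissue back skin and the sample labels call it melanoma tissue. The RNA protocol in the labels describes cultured keratinocytes. The authors deposited TPM per gene; the build GRCm39 is named in the submitters' processing notes, while its aligner and quantifier were not given in the sources used here. The value of one gene depends on all others in the library. Columns were used by group only, since each column name is the described column of 1 sample and the title of another. Each group had 2 libraries, 1 per mouse.

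Values were analysed as log2(TPM + 1), and genes at 1 TPM or more in 2 or more columns entered a limma fit (version 3.58.1, R 4.3.3; moderated, intensity trend, two-sided, Benjamini-Hochberg adjusted p under 0.05 over 14537 genes). Differences on this scale understate the change of low genes. An exact permutation test of 2 against 2 cannot go below p = 0.333 and was not used. The fit was tested on simulated data.

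Markers, lists and alternatives were chosen with earlier results of these data known. Named genes were the 8 markers, whose names come with the marker list, and at most 2 further identifiers in each direction, those past the threshold first and then those with the largest difference, no overlap and at least 10 TPM in the higher group. The other 46 lists of mouse symbols were not analysed here, since 0 mouse identifiers matched the gene name table. Alternatives were other pseudocounts, filters and scalings, a replicate block, no intensity trend and each library left out.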

Additional observations from a re-analysis of the deposited data

How the results depend on the processing

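With 2 libraries a group, the number of genes past the threshold depended on most settings. The count of 9 (3 higher, 6 lower in the cKO columns) became 3 with a pseudocount of 0.1, 0 with a pseudocount of 5, 0 with no filter, 3 with a filter of 5 TPM and 17 with no intensity trend. It was 12 with median-of-ratios scaling and 13 with quantile normalization. The 2 counts of 0 came with 2160 and 2869 genes at an unadjusted p under 0.05 (limma), against 2217 in the main setting. Leaving out each library over the same genes gave 0 to 55, the 3 counts of 0 with 1330, 778 and 1489 genes at an unadjusted p under 0.05. A lone library is then assumed to vary like the other group. With the filter applied anew, an alternative chosen after seeing the data, the counts were 0 without column WT replicate 1 or 2, 13 without column cKO replicate 1 and 139 without column cKO replicate 2. Genes at least 2-fold apart with no overlap, 508 higher and 113 lower, became 778 and 190 with a pseudocount of 0.1, 211 and 35 with a pseudocount of 5, and 263 and 50 with a filter of 5 TPM. Leaving out each library gave 360 to 932 higher and 148 to 231 lower. Between WT-1 and cKO-2 alone, also chosen after seeing the data, there were 370 and 297. With a lone library in a group, no overlap is a looser rule than with all libraries, so these counts are not like for like.

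The labels give both groups the numbers 1 and 2, but nothing says what a number shares. The differences between replicates 1 and 2 correlated at 0.224 across genes between the groups. With a replicate block 6 genes passed, 4 higher and 2 lower. The calls for Spp1 and Timp1 ended with a pseudocount of 5 (limma, adjusted p = 0.0637 for both) and with no filter (0.191 for both), and their adjusted p ranged from 0.022 to 0.634 and from 0.022 to 0.687 over all settings. Their log2 differences stayed between 2.23 and 2.37 and between 2.32 and 2.51 in the tested settings, and that of Il1b between 3.14 and 4.07. The median log2 difference of all genes was 0.09, and -0.01 and -0.04 with the 2 other scalings. Medians of gene lists were not run. Where no cause is shown by how a setting is built, the cause was not tested.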
